A study of Homo sapiens with 4 samples.

Results

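A group of 40 genes that build ribosomes or, in the case of MYC, drive growth was followed in ES2 cells exposed to the ERβ agonist liquiritigenin (Liq). The 40 genes were taken from a list of gene symbols that was chosen with earlier results of these data known. All 40 were among the 23228 genes of the count tables. ES2, derived from a human ovarian carcinoma, is an established line. The cells were kept in phenol red-free RPMI-1640 with 5% dextran-charcoal treated FBS, and received either vehicle or Liq (100 μM) during 24 h. Each group has 2 samples. Total RNA was sequenced, and the deposited values are raw counts of reads per gene. The sources used here do not say whether the 2 samples of a group came from separate cultures, so p-values measure only the spread between these samples, which may be technical.

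A ribosome is assembled in the nucleolus. RNA polymerase I transcribes a long precursor of ribosomal RNA, small nucleolar ribonucleoproteins (snoRNPs) guide the chemical modification and cleavage of that precursor, and large sets of assembly factors then fold it into the small and the large subunit. MYC is a transcription factor that binds DNA with its partner MAX, and genes of all these steps are among its best known targets in proliferating cells.

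The DNA word most closely tied to MYC and MAX is the E-box CACGTG, so 3 promoter stretches that hold it are printed here to show how the word sits in some of these promoters; most of the matched promoters lack it. Each stretch has 30 bases, is written 5′ to 3′ on the strand of its gene, lies wholly before the RefSeq start site in GRCh38.p14, and carries the E-box in capitals.
NOP10: caggaaggaaattgacgaaCACGTGacgcg
UTP20: gcgccgttcttttttccgtcCACGTGaccc
UTP14A: accttgggcCACGTGgaaaccaggggccag
The NOP10 stretch is chr15:34343137-34343166 on the minus strand, with the E-box beginning 11 bases before the start site. The UTP20 stretch is chr12:101280075-101280104 on the plus strand, with the E-box 10 bases before the start. The UTP14A stretch is chrX:129905914-129905943 on the plus strand, with the E-box 241 bases before the start. A promoter window of 300 bases (250 before the start and 50 after it) was matched for 31 of the 40 genes. CACGTG, which reads the same on both strands, was found in 11 of the 31 windows (35.5%), against 940 of the 9268 matched windows of tested genes (10.1%) and 2030 of all 27305 windows (7.43%). The related word CACGCG, searched on both strands, was found in 10 of the 31 (32.3%) and in 18.3% of the windows of tested genes. CACGTG was present in 7 of 16 matched genes that fell with Liq and in 4 of 15 that did not pass the test. These counts describe letters in a window and were not tested. The 9 genes with no window were MYC, TCOF1, NOP58, NOLC1, RRP12, BOP1, RRP1B, RRS1 and DDX18.

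Between 34573053 and 48933893 reads per library were counted on genes, and 3 counts corresponded to 0.0598 to 0.0844 CPM. CPM is the count of a gene scaled to the same total in every library after TMM normalization, which sets 1 scale factor for each library. Of the 13546 genes with enough counts to test, 24% had an adjusted p-value under 0.05 in edgeR's quasi-likelihood test (adjusted by Benjamini-Hochberg over all tested genes). With 2 samples against 2, exact permutation of 1 gene gives no p below 0.333, and each edgeR test therefore leans on the spread shared between genes. Keratins and vimentin were well expressed (KRT18 at 166 to 204 CPM, KRT7 at 238 to 378 CPM and VIM at 5871 to 7604 CPM) and were themselves called, KRT7 higher and KRT18 and VIM lower with Liq. PAX8 and WT1 were also called lower and CDH2 higher, KRT8 was not called, and the part of these markers in the results was not tested. In contrast, the ovarian and epithelial markers CDH1, MUC16 and EPCAM had 0 to 3 counts in any library. PTPRC, CD3E, ITGAM, HBB and HBA1, markers of blood cells, had 0 to 2 counts, and the endothelial genes PECAM1 and VWF had 1 to 10. CD68 (66.4 to 77.4 CPM) and the endothelial gene CDH5 (44.6 to 52.9 CPM) were the markers of other cell types that passed the filter on low counts, and neither was called. ESR2, which encodes ERβ, had 4 to 14 counts per library and was not tested.

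With Liq the ribosome biogenesis genes were slightly but widely lower. Because the list was chosen with earlier results of these data known, the shares below describe the 40 genes and are no independent test. All 40 genes passed the filter on low counts. Of these, 20 fell at an adjusted p-value under 0.05, a share of 50% where 11.3% of all tested genes fell by the same rule. In contrast, 0 of the 40 passed the test upward, where 12.6% of all tested genes did. At an unadjusted p under 0.05 there were 24 lower (17.3% of all tested genes) and 1 higher (18.8%), the higher one being MYC, and the DESeq2 Wald test gave 18 lower and 0 higher at an adjusted p under 0.05 (9.6% and 8.07% of all tested genes). A decrease of at least 1.2-fold was reached by 10 of the 20, where 8.11% of all tested genes were called with such a decrease. The median log2 fold change (Liq over vehicle) was -0.19 for the 40 genes, a level 12.1% lower, against 0.01 for all tested genes. The quartiles of the 40 genes were -0.25 and -0.11. A fitted change below 0 was found in 37 of the 40, against 49% of all tested genes. The 40 genes all had a mean of at least 500 counts per sample. Among the 9158 tested genes with such a mean, 13.8% fell, 10.5% rose and 56.3% were below 0 in the same fit. The largest decrease was 21.3%, and therefore 0 of the 40 reached a fold change of 1.5 with an unadjusted p under 0.05, a threshold passed by 7.85% of tested genes. The DESeq2 Wald test also placed 0 of the 40 past it.

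**Figure D1:**
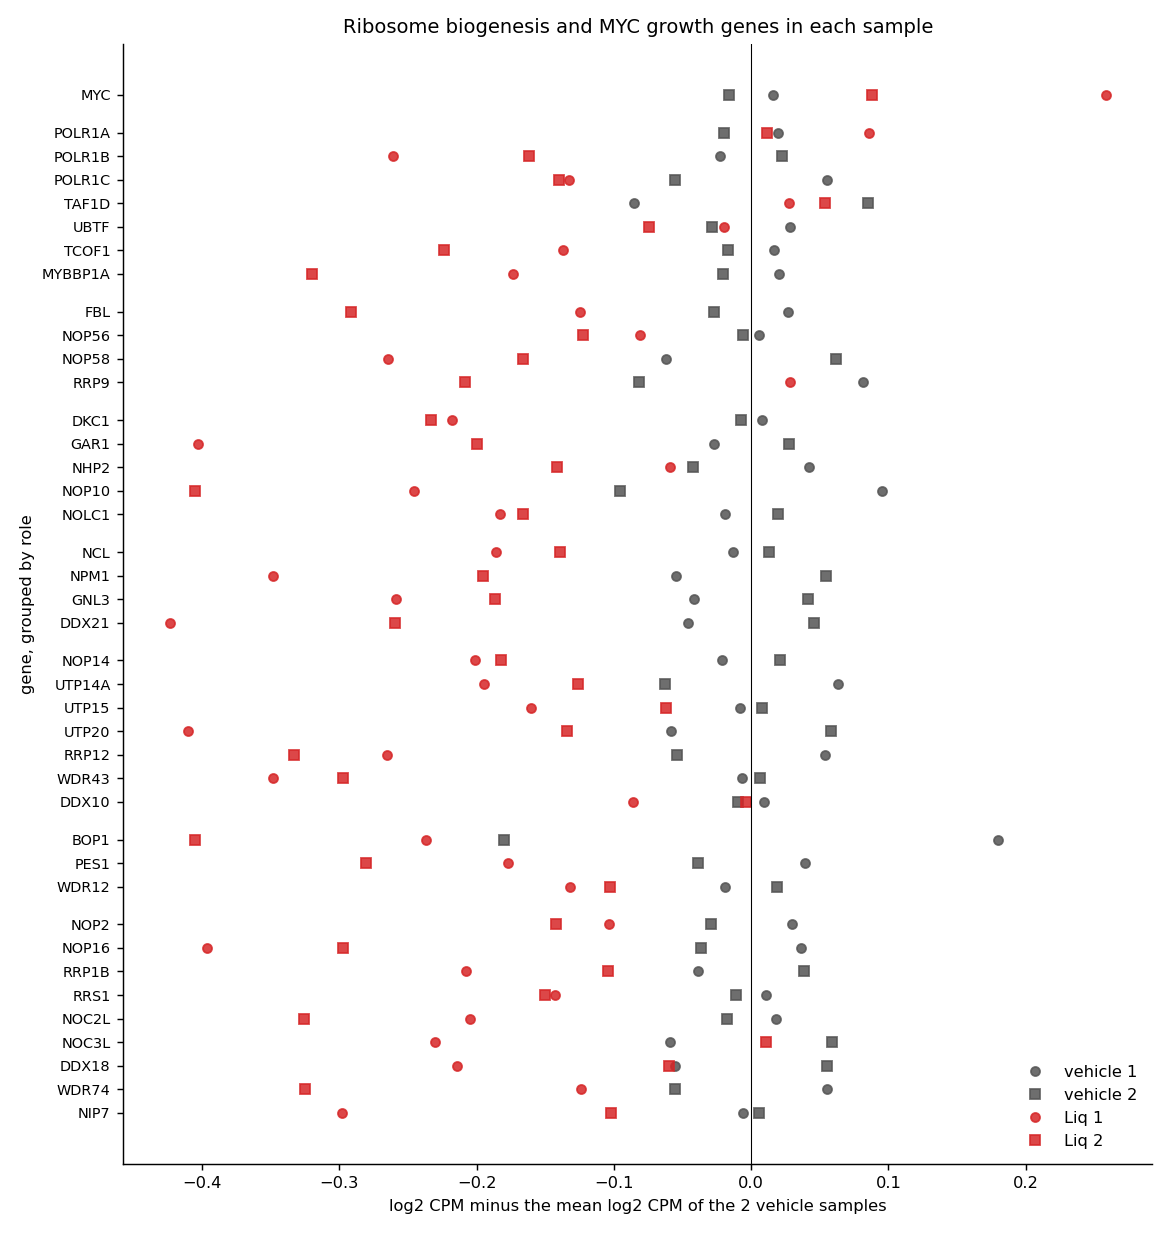
Level of each of the 40 genes in each of the 4 samples, as log2 CPM minus the mean log2 CPM of the 2 vehicle samples (horizontal axis), with genes grouped by role (vertical axis). Grey points are vehicle and red points are Liq, with circles for replicate 1 and squares for replicate 2. In 33 genes both red points lie to the left of both grey points, and in MYC both lie to the right.

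The shift was present in each library. The 40 genes together took 0.862% and 0.885% of all gene counts with vehicle, against 0.808% and 0.820% with Liq. The median distance of the 40 genes from their own 4-sample mean was 0.088 and 0.086 on the log2 scale with vehicle, and -0.089 and -0.074 with Liq. The same median over all tested genes lay between -0.0023 and 0.0043 in the 4 libraries. Both Liq samples were below both vehicle samples in 33 of the 40 genes, where 30.2% of all tested genes had that order. Only MYC had both Liq samples above both vehicle samples, an order found in 31.5% of all tested genes. The groups overlapped in 6 genes, POLR1A, TAF1D, UBTF, RRP9, DDX10 and NOC3L.

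The number of genes called changed with the scaling and with the sample left out, more than their direction did. The cause was not tested. Offsets that follow the expression level left 8 genes lower and 1 higher (MYC), where 10% and 11% of all tested genes were called. In the fits without vehicle replicate 1 or without vehicle replicate 2, 3 and 6 genes were called lower (4.42% and 4.89% of all tested genes) and 0 higher (5.85% and 6.27%). Without vehicle replicate 1 the genes called were NPM1, DDX21 and WDR43, and without vehicle replicate 2 they were NOP10, DDX21, RRP12, WDR43, BOP1 and NOP16. The fits without Liq replicate 1 and without Liq replicate 2 gave 14 and 19 lower (11.5% and 13.2% of all tested genes) and 0 and 1 higher (12.1% and 14.3%). The number of the 40 genes with a value below 0 was 36 with offsets along the expression level and between 36 and 38 in the 4 fits without 1 sample.

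**Figure D2:**
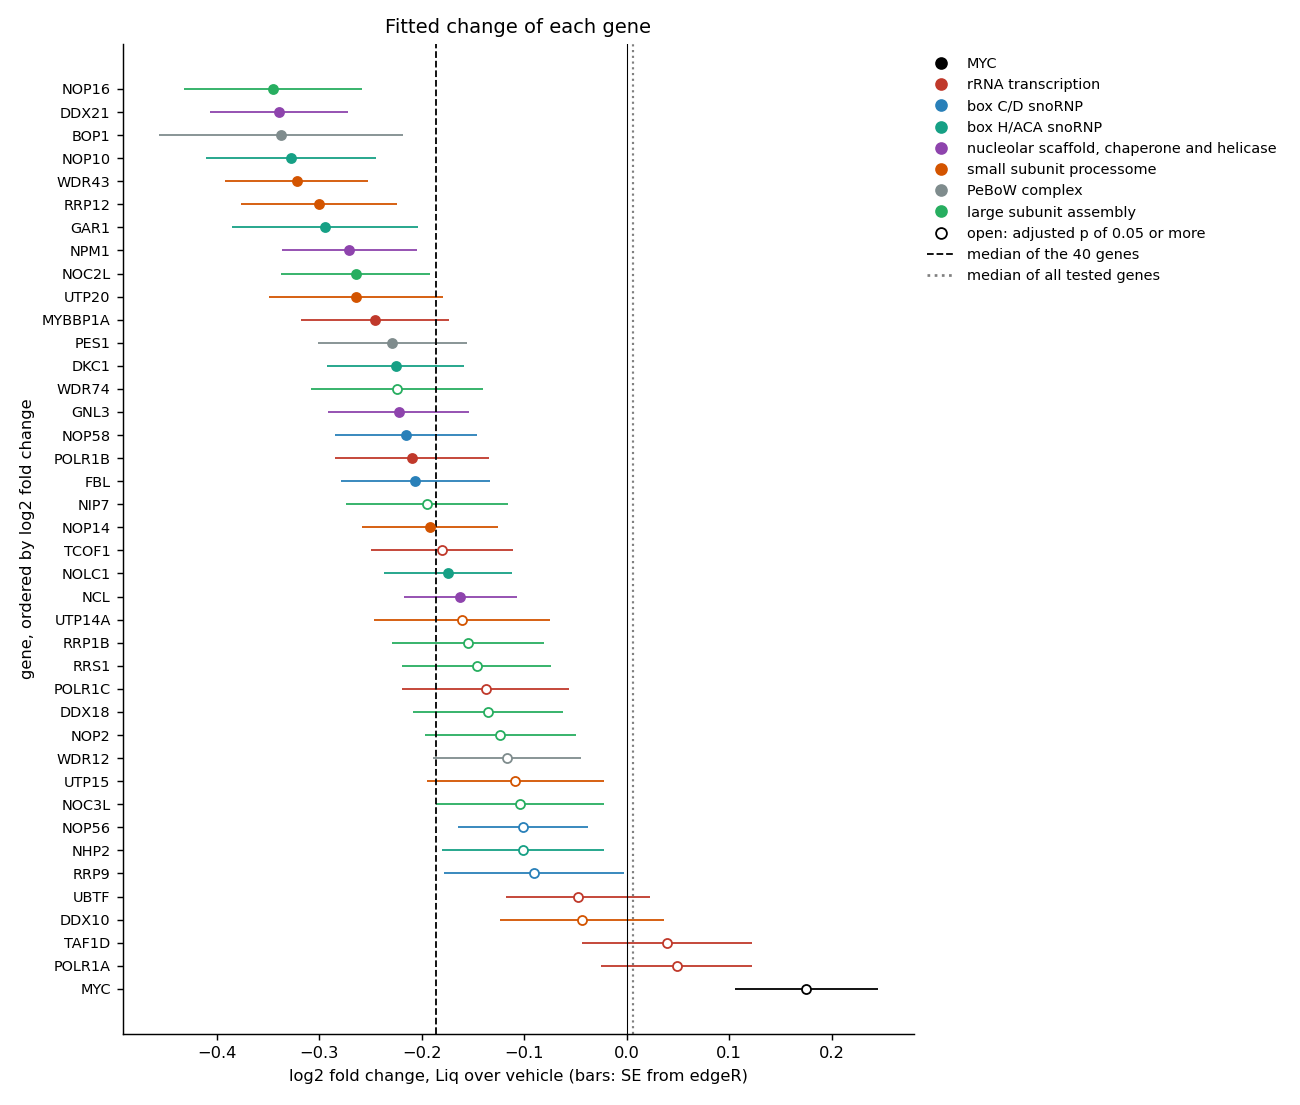
Fitted log2 fold change of each of the 40 genes (horizontal axis, bars are the SE from edgeR), ordered from the lowest to the highest (vertical axis) and coloured by role. Filled points had an adjusted p-value under 0.05. The dashed line is the median of the 40 genes at -0.19 and the dotted line is the median of all tested genes at 0.01, and MYC stands at the high end with 0.18.

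MYC itself was not lower with Liq. MYC (GRCh37 chromosome 8 from 128747680 to 128755197) was expressed at 291.5 and 285 CPM in vehicle and at 345 and 306 CPM in Liq. Its Liq samples were both above its vehicle samples, with replicate 1 of Liq the higher. The fitted difference was 0.18 on the log2 scale (SE 0.070, 95% interval 0.03 to 0.32), or 12.9% more transcript, and it did not pass the test over all genes (adjusted p = 0.0683 from edgeR). The call turned with the setting. MYC passed with offsets along the expression level (log2 fold change 0.26, adjusted p = 0.00853 from edgeR) and without Liq replicate 2 (0.26, adjusted p = 0.00451 from edgeR), while without Liq replicate 1 its value was 0.09 (adjusted p = 0.435 from edgeR). Relative to the median of the other 39 genes, MYC was 0.37 higher on the log2 scale, and this distance ranged from 0.25 to 0.45 over the 12 other fits.

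The counts by role that follow stand beside 11.3% of all tested genes called lower. Both Liq samples lay below both vehicle samples in 30.2% of all tested genes. Each role holds few genes, and differences between roles were not tested. Among genes that transcribe ribosomal RNA, 2 of 7 were lower, and the median log2 fold change of the 7 was -0.14. POLR1B, a catalytic core subunit of RNA polymerase I, was measured at 112 and 116 CPM in vehicle and at 94.9 and 102 CPM in Liq. POLR1B fell without overlap between the groups, by 0.21 log2 units (SE 0.075, adjusted p = 0.0428 from edgeR). MYBBP1A, a nucleolar protein that acts in the transcription and processing of ribosomal RNA, had 210.2 and 204 CPM in vehicle and 184 and 166 CPM in Liq. MYBBP1A was lower in both Liq samples, with replicate 2 the lowest, and fell by 0.25 (SE 0.072, adjusted p = 0.0138 from edgeR). TCOF1 (treacle, which helps RNA polymerase I at the ribosomal genes) had 232 and 226 CPM against 208 and 196 CPM and missed the threshold (log2 fold change -0.18, adjusted p = 0.0580 from edgeR). POLR1C, a subunit shared by polymerases I and III, had a log2 fold change of -0.14 that did not pass. The other 3 genes overlapped between groups and lay near 0. They were POLR1A (the largest polymerase I subunit) at 0.05, TAF1D (a subunit of the promoter selectivity factor) at 0.04 and UBTF (the factor that binds the ribosomal gene promoter) at -0.05.

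Among the proteins of box C/D snoRNPs, particles that mostly guide the methylation of ribosomal RNA, 2 of 4 were lower. FBL (fibrillarin, the methyltransferase) had 214 and 206 CPM in vehicle and 192 and 171 CPM in Liq. The Liq samples of FBL were both lower, and the decrease was 13.3% (log2 fold change -0.21 with an SE of 0.073, adjusted p = 0.0393 from edgeR). NOP58, a core scaffold protein, had 289 and 314 CPM in vehicle and 251 and 268 CPM in Liq. NOP58 did not overlap between the groups and decreased by 13.9% (log2 fold change -0.22 with an SE of 0.069, adjusted p = 0.0248 from edgeR). Its partner NOP56 had 449.8 and 446 CPM against 424 and 411 CPM, lower in both Liq samples by 6.8% but not past the threshold (adjusted p = 0.256 from edgeR). RRP9, a protein of the snoRNP that starts small subunit assembly, overlapped between the groups (log2 fold change -0.09).

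Box H/ACA snoRNPs are particles that guide the change of uridine to pseudouridine. Of 5 genes for their proteins or for a chaperone of snoRNPs, 4 were lower (11.3% of all tested genes). In all 5 the Liq samples lay below the vehicle samples, an order found in 30.2% of all tested genes. NOP10 (GRCh37 chromosome 15 from 34631360 to 34635381), a small core protein whose promoter stretch is printed above, had 103 and 90.4 CPM in vehicle and 81.5 and 73.0 CPM in Liq. Both NOP10 values in Liq were below the lower vehicle value, and the gene fell by 0.33 in log2 (SE 0.083, adjusted p = 0.00484 from edgeR). GAR1 (chromosome 4 from 110736666 to 110745896), another core protein, had 38.6 and 40.1 CPM in vehicle and 29.8 and 34.2 CPM in Liq. GAR1 was lowest in Liq replicate 1 and fell by 0.29 (SE 0.091, adjusted p = 0.0193 from edgeR). DKC1 (dyskerin, the pseudouridine synthase) had 261 and 258 CPM in vehicle and 223 and 221 CPM in Liq. The DKC1 replicates lay close together in each group, and the gene fell by 0.23 (SE 0.067, adjusted p = 0.0153 from edgeR). NOLC1, a chaperone of snoRNPs, had 507 and 521 CPM against 453 and 458 CPM. NOLC1 fell by 0.17 without overlap (SE 0.063, adjusted p = 0.0438 from edgeR). NHP2, the remaining core protein, had a log2 fold change of -0.10 that did not pass.

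All 4 nucleolar scaffold, chaperone and helicase genes were lower. DDX21 (GRCh37 chromosome 10 from 70715891 to 70744824), an RNA helicase that acts in both transcription and processing of ribosomal RNA, had 599.7 and 639 CPM in vehicle and 462 and 517 CPM in Liq. Its 2 groups did not overlap, and the gap between them was wider than the distance within either. DDX21 had the smallest p-value of the 40 genes, with a decrease of 21.0% (log2 fold change -0.34 with an SE of 0.067, adjusted p = 0.000518 from edgeR). NPM1 (nucleophosmin, a nucleolar chaperone) had 679.5 and 733 CPM in vehicle and 554 and 616 CPM in Liq. NPM1 fell by 0.27 (SE 0.066, adjusted p = 0.00374 from edgeR), with replicate 1 the lower in each group. NCL (nucleolin), a histone and RNA chaperone, had 1888 and 1923 CPM in vehicle and 1675 and 1731 CPM in Liq. NCL was lower in both Liq samples by 10.6% (log2 fold change -0.16 with an SE of 0.056, adjusted p = 0.0341 from edgeR). GNL3 (nucleostemin), a GTP-binding nucleolar protein, had 242 and 257 CPM in vehicle and 208 and 219 CPM in Liq. GNL3 fell by 0.22 without overlap (SE 0.069, adjusted p = 0.0197 from edgeR). The gene coordinates of NPM1 are chromosome 5 from 170814120 to 170838814, and 49 annotated genes have pseudogene names formed from its name. Reads that align to more than 1 place were not counted, so the level of NPM1 may be an undercount.

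In the small subunit processome, the large particle that assembles on the nascent precursor, 4 of 7 genes were lower. WDR43 (GRCh37 chromosome 2 from 29117533 to 29171085), a subunit of the complex that binds the precursor first, had 189 and 191 CPM in vehicle and 149 and 155 CPM in Liq. WDR43 was tight within each group and fell by 0.32 (SE 0.070, adjusted p = 0.00136 from edgeR). RRP12, which helps pre-ribosomes mature and leave the nucleus, had 119.5 and 111 CPM in vehicle and 95.8 and 91.4 CPM in Liq. RRP12 did not overlap between the groups and fell by 0.30 (SE 0.076, adjusted p = 0.00489 from edgeR). UTP20, whose promoter stretch is also printed above, had 109 and 118 CPM against 85.6 and 104 CPM. The UTP20 values in Liq were the more scattered, and the gene fell by 0.26 (SE 0.085, adjusted p = 0.0236 from edgeR). NOP14, an early assembly factor, had 301 and 309.6 CPM against 265 and 269 CPM. NOP14 fell by 0.19 without overlap (SE 0.066, adjusted p = 0.0355 from edgeR). UTP14A, UTP15 and the helicase gene DDX10 had log2 fold changes of -0.16, -0.11 and -0.04 and did not pass.

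The PeBoW complex, which is needed for the large subunit, was lower in 2 of its 3 genes. PES1 had 172 and 163 CPM in vehicle and 148 and 138 CPM in Liq. PES1 fell by 0.23 without overlap (SE 0.073, adjusted p = 0.0223 from edgeR). BOP1, the least expressed of the 40 genes, had 15.4 and 11.99 CPM in vehicle and 11.5 and 10.3 CPM in Liq. The BOP1 groups were separated by less than the distance between its vehicle samples, and it fell by 0.34 in log2 (SE 0.12, adjusted p = 0.0401 from edgeR). WDR12 was 7.79% lower, with no overlap but no call (adjusted p = 0.255 from edgeR).

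Of 9 other factors of large subunit assembly, 2 were lower (11.3% of all tested genes). In 8 both Liq samples lay below both vehicle samples, an order found in 30.2% of all tested genes. NOP16 (GRCh37 chromosome 5 from 175810949 to 175815928), a nucleolar factor known as a MYC target, had 44.8 and 42.6 CPM in vehicle and 33.2 and 35.6 CPM in Liq. The gap between the groups of NOP16 was wider than the gap within either, and its decrease of 21.3% was the largest of the 40 genes (log2 fold change -0.35 with an SE of 0.087, adjusted p = 0.00465 from edgeR). NOC2L, which escorts early large subunits, had 169.7 and 166 CPM in vehicle and 145 and 134 CPM in Liq. NOC2L fell by 0.26 (SE 0.072, adjusted p = 0.00883 from edgeR), with Liq replicate 2 the lowest. WDR74, with 72.3 and 67.0 CPM against 63.9 and 55.5 CPM, and NIP7, with 101 and 102 CPM against 82.3 and 94.2 CPM, missed the threshold narrowly (adjusted p = 0.0528 and 0.0739 from edgeR). The remaining 5 genes did not pass and had log2 fold changes of -0.15 (RRP1B and RRS1), -0.14 (the helicase gene DDX18), -0.12 (NOP2, a methyltransferase of ribosomal RNA) and -0.10 (NOC3L).

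Levels between genes were compared per length, as RPKM on the canonical transcript of the GENCODE annotation. The highest levels in vehicle were those of NPM1 at 535 ± 29 RPKM and NCL at 486 ± 6.2 RPKM (SD, n = 2), followed by NOP56 at 234 ± 1.3 RPKM. The lowest were POLR1A at 9.08 ± 0.18 RPKM, UTP15 at 7.73 ± 0.06 RPKM and BOP1 at 5.86 ± 1.03 RPKM. The Spearman rho was -0.02 between mean log2 CPM and log2 fold change over the 40 genes, which share the same 4 libraries. The 40 genes lie on 18 chromosomes. Small nucleolar RNA genes sit inside 8 of them (POLR1C, TAF1D, NOP56, NOP58, DKC1, NCL, GNL3 and WDR43). Of these 8, 5 fell, a share near that of the whole group (20 of 40), where 11.3% of all tested genes fell. In 12 genes a gene on the other strand overlaps. Of these 12, 6 fell (MYBBP1A, GNL3, BOP1, PES1, NOP16 and NOC2L), the same share as in the whole group (20 of 40). Whether strand was used in counting is not given in the sources used here, so reads of these pairs may not be told apart.

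**Figure D3:**
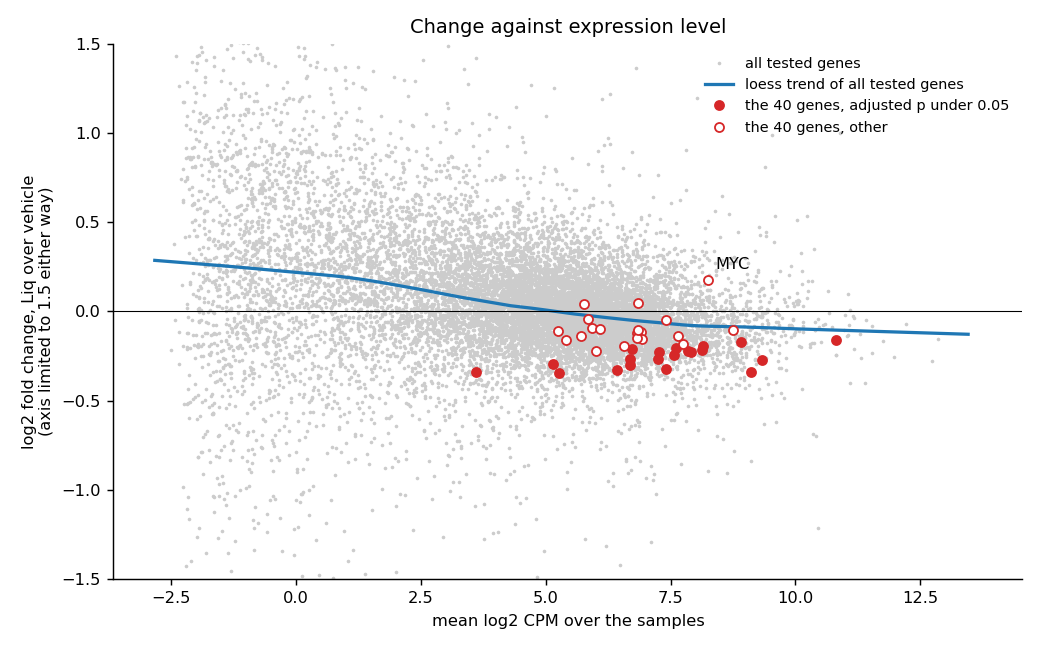
Fitted log2 fold change (vertical axis, limited to 1.5 either way) against mean log2 CPM (horizontal axis, log scale) for all 13546 tested genes in grey and the 40 genes in red. Filled red points had an adjusted p-value under 0.05. The blue line is the loess trend of all tested genes, which lies between -0.11 and 0.07 at the levels of the 40 genes, most of which lie below it.

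The levels of the 40 genes place them where all genes tended to be somewhat lower. Well expressed genes had slightly negative changes and weakly expressed genes positive ones, and the trend over all tested genes had a median of -0.05 at the levels of the 40 genes. With the trend removed by offsets along the expression level, the median of the 40 genes was -0.13 and 36 of them were below 0. The 8 genes still called lower under that setting were GAR1, NOP10, DDX21, RRP12, WDR43, BOP1, NOP16 and NOC2L. Among genes with a mean of at least 500 counts per sample, fitted alone, the median of the 40 genes was -0.15 against 0.00 for all 9158 genes. In that fit 11 of the 40 were lower, where 10.4% of the genes tested were, and MYC was higher, as were 12.7% of those genes. Upper-quartile normalization, which shifted the median of all tested genes to 0.03, gave 13 lower (9.04% of tested genes) and 1 higher (13.9%). The fit with the replicate number as a block gave 26 lower (18.3%) and 1 higher (17.1%), and offsets along GC content, added after the data were seen, gave 27 lower (21.5%) and 1 higher (18.8%). The 1 higher gene was MYC in each of these fits.

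**Figure D4:**
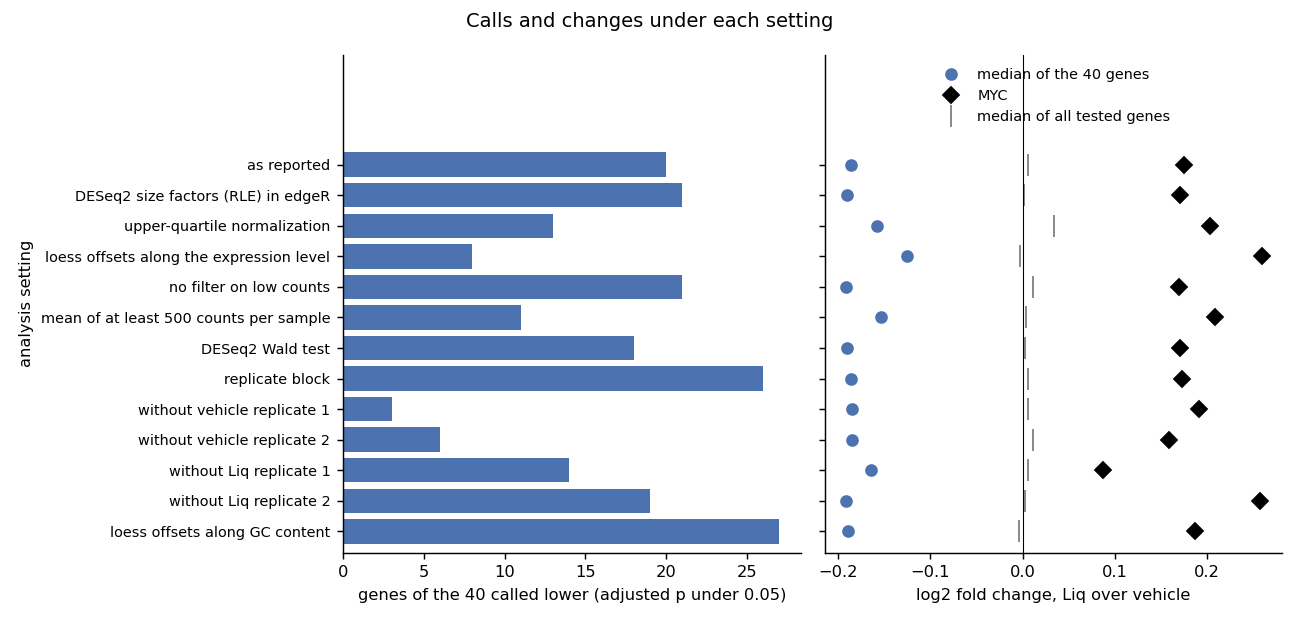
Number of the 40 genes called lower (left, horizontal axis) and log2 fold change of their median, of MYC and of the median of all tested genes (right, horizontal axis), under each analysis setting (vertical axis). The number called ranges from 3 to 27, while the median of the 40 genes stays between -0.19 and -0.13 and MYC stays above 0.

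Of the 20 genes that fell, 7 were called in every one of the 8 other settings that kept all samples, namely GAR1, NOP10, DDX21, RRP12, WDR43, NOP16 and NOC2L. DDX21 and WDR43 were the 2 genes also called in each of the 4 fits that left out 1 sample. Over all these fits the log2 fold change ranged from -0.42 to -0.25 for DDX21 and from -0.35 to -0.25 for WDR43.

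Further genes of the pathway were mostly lower as well. Their lists were also chosen with earlier results of these data known and were read in the same 4 libraries. The counts below therefore describe these genes and are no independent test. Lists of other ribosome biogenesis genes held 143 genes, of which 142 were tested, 38 fell and 1 rose. These are 26.8% and 0.70% of the list, where 11.3% and 12.6% of all tested genes fell and rose. Their median log2 fold change was -0.15 and 121 of them were below 0. The numbers called also changed with the sample left out, and the cause was not tested. With offsets along the expression level, 21 were lower and 2 higher, where 10% and 11% of all tested genes were.

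Of 41 other genes of the small subunit processome, 12 fell (29.3%). The lowest p-values were those of UTP18, which went from 141 and 146 CPM in vehicle to 101 and 124 CPM in Liq (log2 fold change -0.35, adjusted p = 0.00275 from edgeR), of DDX47 and of NOL11. The calls of DDX47 and NOL11 were lost without vehicle replicate 1 (adjusted p = 0.0656 and 0.0689 from edgeR), and all 3 were lost without vehicle replicate 2 (0.0502 for UTP18, 0.118 for DDX47 and 0.142 for NOL11). Of 44 other genes of large subunit assembly, 16 fell (36.4%). EBNA1BP2, a nucleolar assembly factor, went from 275 and 269 CPM to 191 and 186 CPM, a decrease of 30.7% and the largest among the pathway genes of either list (log2 fold change -0.53 with an SE of 0.068, adjusted p = 1.88e-06 from edgeR). SBDS, which releases a block on the finished large subunit and is mutated in Shwachman-Diamond syndrome, had a log2 fold change of -0.46, and TEX10, part of a processing complex, had one of -0.44 (adjusted p = 3.78e-05 and 0.000276 from edgeR).

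Of 32 other genes of RNA polymerases I and III, 6 fell (18.8%) and 1 rose (3.12%). GTF3C6, a subunit of a polymerase III initiation factor, fell by 0.52, and CD3EAP, now named POLR1G, fell by 0.47 (adjusted p = 0.000179 and 0.000128 from edgeR). TWISTNB, now POLR1F and also a polymerase I subunit, fell by 0.25 (adjusted p = 0.0153 from edgeR), a call lost with offsets along the expression level (adjusted p = 0.0554 from edgeR), without vehicle replicate 1 (0.155) and without vehicle replicate 2 (0.224). TAF1C, of the same selectivity factor as TAF1D, was the gene that rose, from 46.6 and 45.8 CPM to 64.2 and 53.2 CPM (log2 fold change 0.34, adjusted p = 0.00595 from edgeR), a call lost in the fit without vehicle replicate 1, without vehicle replicate 2 or without Liq replicate 1 (adjusted p = 0.0612, 0.0820 and 0.0789 from edgeR). Of 25 tested genes of the exosome and RNase MRP, which trim the precursor, 4 fell, a share of 16% that lies near the 11.3% of all tested genes. Among them were EXOSC10 at -0.31, EXOSC5 at -0.41 and MPHOSPH6 at -0.27 on the log2 scale. Without vehicle replicate 1 all 3 calls were lost (adjusted p = 0.128, 0.186 and 0.172 from edgeR), EXOSC10 and MPHOSPH6 also lost theirs without vehicle replicate 2 (0.0545 and 0.157), and MPHOSPH6 without Liq replicate 1 (0.0768).

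**Figure D5:**
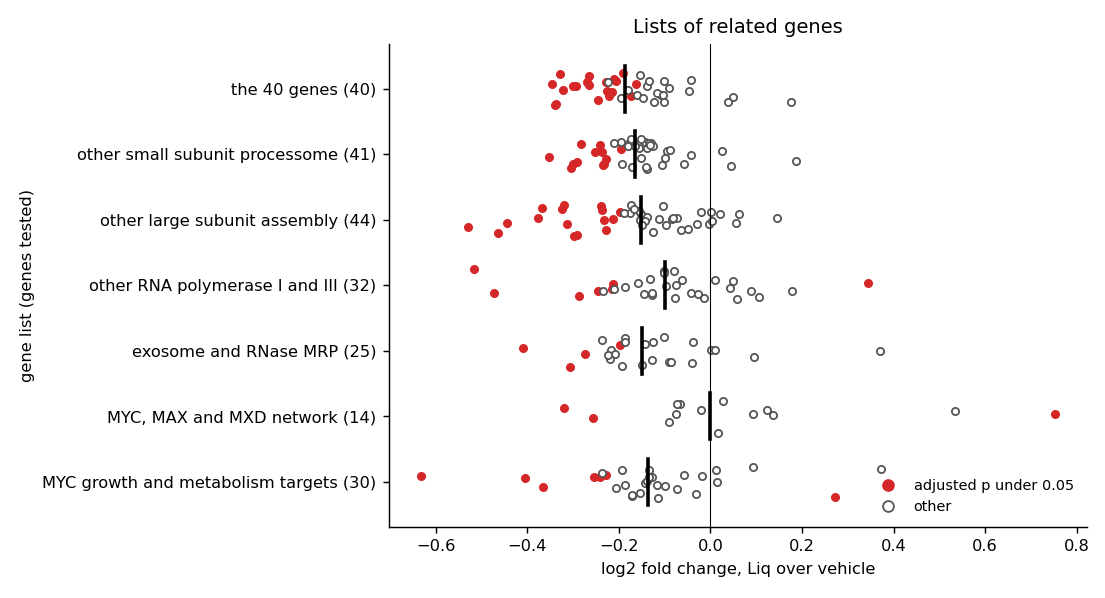
Log2 fold change (horizontal axis) of each tested gene in the 40-gene group and in 6 lists of related genes (vertical axis, number of genes tested in parentheses). Red points had an adjusted p-value under 0.05 and black bars are medians, which run from -0.19 in the 40 genes to 0.00 in the MYC, MAX and MXD network.

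Of 14 tested genes of the MYC, MAX and MXD network, 2 fell (14.3%) and 1 rose (7.14%), shares near or below those of all tested genes (11.3% and 12.6%). MAX, the obligate partner of MYC, had 74.9 and 73.2 CPM in vehicle and 62.5 and 61.5 CPM in Liq. MAX fell by 0.26 (SE 0.077, adjusted p = 0.0168 from edgeR), and MLX, the partner of the related MLXIP proteins, fell by 0.32 (adjusted p = 0.00318 from edgeR). Both calls were lost in the fits without vehicle replicate 1 and without vehicle replicate 2, with adjusted p-values from edgeR of 0.239 and 0.147 for MAX and of 0.0624 and 0.0912 for MLX. MXD3, which also binds MAX and belongs to a family of repressors, had 8.03 and 7.16 CPM in vehicle and 14.7 and 11.1 CPM in Liq. MXD3 was higher in both Liq samples, with replicate 1 the higher, and rose by 0.75 (SE 0.13, adjusted p = 9.94e-05 from edgeR). The median of the 14 genes was 0.00.

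Of 30 tested growth and metabolism genes known as MYC targets, 6 fell (20%) and 1 rose (3.33%). Of all tested genes, 11.3% fell and 12.6% rose. The median log2 fold change of the 30 genes was -0.14. ODC1, the rate-limiting enzyme of polyamine synthesis, had 815 and 791 CPM in vehicle and 513 and 523 CPM in Liq. ODC1 was separated from its vehicle level by far more than the replicate distance and fell by 0.63 (SE 0.061, adjusted p = 1.59e-08 from edgeR). NME1, a nucleoside diphosphate kinase, fell by 0.41 and EIF5A, a translation factor modified with a polyamine, fell by 0.37 (adjusted p = 0.000233 and 0.000380 from edgeR). TFRC, the transferrin receptor, rose from 473 and 494 CPM to 543 and 624 CPM (log2 fold change 0.27, adjusted p = 0.00479 from edgeR), a call lost without vehicle replicate 1 and without Liq replicate 2 (adjusted p = 0.0948 and 0.0803 from edgeR).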

How the data were processed

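RNA-seq counts of ES2 cells were analysed, 2 vehicle and 2 Liq samples grouped by their labels, with the dose taken from the methods of the study. Per the labels, the authors made libraries from total RNA, aligned reads to hg19 with TopHat2 2.0.8b, counted them with HTSeq and deposited raw counts per gene symbol. The 5 tally lines of each table stayed out (ambiguous reads 0.545% to 0.557%, reads aligned to several places 35.6% to 36.2% of all). The 40 genes and the lists of related genes were chosen with earlier results of these data known. In R 4.3.3, edgeR 4.0.16 kept genes by filterByExpr (minimum count 10, minimum total 15), scaled by TMM and fitted the whole table by the quasi-likelihood test without a block. The SE is the log2 fold change over the root of F. Of each related list, at most the 3 called genes of lowest p in each direction were named. Symbols were matched to GENCODE v44lift37 for coordinates, lengths and GC content. Fits were tested on simulated counts. Alternatives included DESeq2 1.42.0, other scalings and filters, a block, and each sample left out. Some marker genes are not reported here.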

Additional observations from a re-analysis of the deposited data

How the results depend on the processing

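Direction held better than calls. In the fit as reported, 142 other ribosome biogenesis genes and 44 MYC network and growth target genes were tested. Upper-quartile normalization called 9.04% of all tested genes lower and 13.9% higher. It gave 13 of the 40 genes lower and 1 higher, and 24 other ribosome biogenesis genes lower. The median of the 40 genes was -0.16, and MYC was at 0.20 (adjusted p = 0.0409 from edgeR). Loess offsets along the expression level called 10% of all tested genes lower and 11% higher. They gave 8 of the 40 lower and 1 higher, and 21 and 2 of the other ribosome biogenesis genes. Of the MYC network and growth target genes, 5 were lower. The median of the 40 genes was -0.13, and MYC was at 0.26 (adjusted p = 0.00853 from edgeR). A mean of at least 500 counts gave 2109 called genes in all, with 10.4% of the genes tested lower and 12.7% higher. It gave 11 of the 40 lower and 1 higher. There were 24 other ribosome biogenesis genes lower and 1 MYC network and growth target gene higher. The median of the 40 genes was -0.15, and MYC was at 0.21 (adjusted p = 0.0334 from edgeR). A fold change of at least 1.2 left 10 of the 40 lower, where 8.11% of tested genes were. The remaining settings that kept all samples and used neither a block nor GC offsets (DESeq2 size factors, no filter on low counts and the DESeq2 Wald test) gave 18 to 21 lower.

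With the replicate number as a block, 18.3% of all tested genes were lower and 17.1% higher. In that fit 26 of the 40 were lower and 1 higher (MYC at 0.17, adjusted p = 0.00819 from edgeR). Of the other ribosome biogenesis genes 74 were lower and 4 higher, and 17 MYC network and growth target genes were lower. The labels share the numbers 1 and 2 without saying that they pair samples, and the replicate differences of the 2 groups had a correlation of 0.036 over all tested genes and of 0.71 over the 40. Loess offsets along GC content, chosen after the data were seen, gave 5118 called genes, with 21.5% of tested genes lower and 18.8% higher. They gave 27 of the 40 lower and 1 higher (MYC at 0.19, adjusted p = 0.00876 from edgeR). Of the other ribosome biogenesis genes 78 were lower and 3 higher, and 19 MYC network and growth target genes were lower.

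Without 1 sample in turn, where the lone sample of a group is assumed to vary like the others, the counts ran from 1413 to 3780 for all genes, 3 to 19 lower and 0 to 1 higher of the 40, 11 to 59 and 0 to 2 of the other ribosome biogenesis genes, and 3 to 11 and 1 to 3 of the MYC network and growth target genes. The median ran from -0.19 to -0.16 and MYC from 0.087 to 0.257. The cause of these differences was not tested. A change of sign was seen in 4 genes, none of them called as reported: UBTF with offsets along the expression level (0.020), and, over the fits without 1 sample, TAF1D (-0.045 to 0.125), NOC3L (-0.232 to 0.0092) and RRP9 (-0.212 to 0.024). None of the 40 genes passed 1.5-fold with an unadjusted p under 0.05 in edgeR or DESeq2 under any setting tried (0 in each).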

Other observations

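Replicates of 1 group differed along the GC content of the transcripts. Over the 40 genes, the Spearman rho between GC content and the log2 difference of replicate 1 minus replicate 2 was 0.76 in vehicle and 0.77 in Liq, as a description over genes that share the libraries. Genes rich in GC such as RRP9 and FBL were higher in replicate 1 of each group, and genes poor in GC such as NPM1, NOP58, DDX18 and NOC3L were higher in replicate 2. The change with Liq did not follow GC content in the same way, with a rho of -0.11 over the 40 genes and of 0.07 over the 12710 tested genes with a GC value.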
